A study of Mus musculus with 8 samples.

Results

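The pigment genes described here are Dct, Tyr, Tyrp1, Mlana, Pmel, Mitf and Oca2, which serve melanin synthesis and the melanosome. They were chosen by symbol and are 7 of the 23420 genes named in the comparison of mouse limbus and cornea. All 7 were listed with reads in both tissues. Every pigment gene had more normalised reads in the limbus than in the cornea, and together they had 5.09-fold more (log2 ratio 2.35, 95% interval 2.18 to 2.52).

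Corneal buttons and limbal rims were dissected from 16 eyes of wild type C57BL/6J mice aged 8 weeks, with no treatment, and were pooled by tissue before RNA extraction. The corneal button is the central cornea, and the limbal rim is the border around it, where the stem cells of the corneal epithelium reside. The labels number 4 samples per tissue, but the values trace back to 1 library per tissue, so no difference has a replicate check and none has a p-value. Total RNA was sequenced, and the comparison asks which genes differ in level between the stem cell niche of the limbus and the cornea inside it.

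Melanin is made in melanosomes, organelles related to lysosomes, from the amino acid tyrosine. In the eye, pigment is formed by melanocytes, which come from the neural crest and lie in the limbus, the iris and the choroid, and by the retinal, ciliary and iris pigment epithelia, which come from the optic cup. Both kinds of cell use tyrosinase and its relatives, the matrix protein Pmel and the transcription factor Mitf. None of the 7 genes therefore separates melanocytes from pigment epithelium. In pooled tissue, fewer pigment cells and less pigment gene RNA per cell cannot be told apart.

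Reads on named genes totalled 26104317 for the cornea and 21182025 for the limbus. The number of genes tested, those with over 3 reads in each library, was 13862. Of these, 4596 lay on the limbal side beyond counting error and 5627 on the corneal side, and the median log2 ratio of limbus over cornea was -0.05. Scaling by total reads in place of the size factors would add 0.21 to every log2 ratio and would raise the share of genes with a log2 ratio above 0 from 46.6% to 58.9%. Krt12, the keratin of differentiated corneal epithelium, had 1137735 corneal and 233324 limbal reads, and Krt19, a keratin of limbal and conjunctival epithelium, had 1417 and 30740, so both labels matched their markers. All intervals below are exact, are at the 95% level and cover counting error only, since amplified reads that carry no molecular identifier do not each stand for a molecule. A gene is called higher in a tissue where its interval excludes a log2 ratio of 0 and each library had over 3 reads.

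Of the 7 pigment genes, 6 could be tested in this way, and all 6 were higher in the limbus, against 33.2% of all genes tested. A log2 ratio of 1 or more was reached by 5 of the 6, against 15.5% of all genes tested. The median log2 ratio was 2.43 over these 6 and 2.42 over all 7, while the 95th percentile of all genes tested lay at 2.62. Oca2 had 2 corneal reads and was therefore left out of the count, although its interval also lay above 0.

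**Figure D1:**
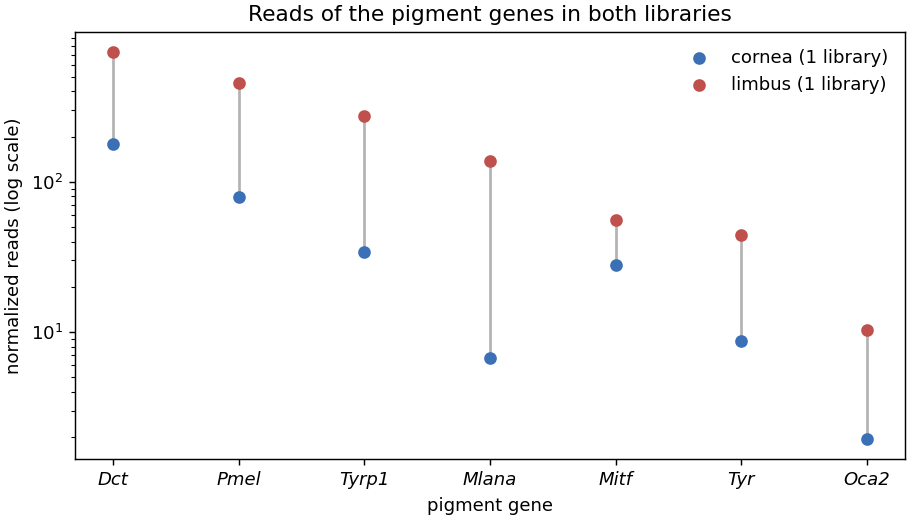
Normalised reads (reads divided by the size factor of their library, log scale) of each pigment gene, with 1 point for the cornea library and 1 for the limbus library, joined by a line. The limbal point lies above the corneal point for all 7 genes, with the shortest line for Mitf (28.1 and 55.8) and the longest for Mlana (6.77 and 136).

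The tyrosinase family comprises the enzymes of melanin synthesis. Dct, the dopachrome tautomerase that steers the pathway towards the carboxylated form of dihydroxyindole, had 183 corneal and 710 limbal reads. Tyr, the tyrosinase that carries out the rate-limiting oxidation of tyrosine, had 9 corneal and 43 limbal reads. Tyrp1, the tyrosinase-related protein that stabilises tyrosinase and takes part in the later steps towards eumelanin, had 35 corneal and 266 limbal reads. The limbus was the higher library for each of the 3 enzymes, although the corneal reads were few for Tyr. The fold difference was 4.15 for Dct (log2 ratio 2.05, 1.82 to 2.29). For Tyr it was 5.11 (log2 ratio 2.35, 1.30 to 3.57). For Tyrp1 it was 8.12 (log2 ratio 3.02, 2.51 to 3.57). The intervals of Dct and Tyrp1 did not overlap, so these enzymes differed in their ratio by more than counting error, and the wide interval of Tyr overlapped both.

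In GRCm38, Dct lies at chr14:118012790-118052244 on the minus strand, Tyr at chr7:87424771-87493512 on the minus strand and Tyrp1 at chr4:80834123-80851719 on the plus strand. The antisense gene 4930435M08Rik overlaps Dct, and no other annotated gene overlaps Tyr or Tyrp1. Whether reads were counted by strand is not given in the sources used here, so reads of Dct and of its antisense partner cannot be told apart.

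The 3 enzyme genes share a stretch of sequence before their start sites. In RefSeq promoter windows of 300 bases (GRCm38.p6, 250 before to 50 after each start), the longest run of letters found in the windows of Tyr, Tyrp1 and Dct alike was GTCATGTGCT. For Tyr and Tyrp1 alone it was 1 letter longer, AGTCATGTGCT, which is known as the M-box of pigment gene promoters and holds the core CATGTG that Mitf binds. Searched on both strands, GTCATGTGCT was present in 61 of all 32851 windows (0.186%), and its presence in the 3 enzyme genes is how it was chosen. The 30 bases around each match are shown with the matched letters in capitals, on the strand of the gene, for Tyr from chr7:87493516-87493545 (minus strand), for Tyrp1 from chr4:80834155-80834184 (plus strand) and for Dct from chr14:118052379-118052408 (minus strand).
Tyr: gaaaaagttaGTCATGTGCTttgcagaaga
Tyrp1: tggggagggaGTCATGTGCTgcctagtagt
Dct: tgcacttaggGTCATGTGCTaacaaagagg

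The match began 23 bases before the start site in Tyr, 48 bases before it in Tyrp1 and 152 bases before it in Dct. The full M-box of Tyr and Tyrp1 was found in 7 of all windows (0.0213%). In Tyrp1 the match lies inside the span of the gene in GENCODE, whose annotation starts further upstream. The 170 bases before the start sites of Tyr, chr7:87493513-87493682, and Dct, chr14:118052247-118052416, both on the minus strand, are given to show where the match lies, close to the start in Tyr and near the far end in Dct.
Tyr: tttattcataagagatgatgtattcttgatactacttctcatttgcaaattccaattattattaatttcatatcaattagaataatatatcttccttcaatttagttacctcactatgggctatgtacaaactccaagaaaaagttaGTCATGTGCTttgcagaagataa
Dct: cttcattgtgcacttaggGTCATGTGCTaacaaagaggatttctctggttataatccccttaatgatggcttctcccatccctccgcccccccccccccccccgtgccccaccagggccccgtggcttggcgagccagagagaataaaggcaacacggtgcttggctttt

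The core CATGTG was found in 14.2% of all windows. Besides the matches shown, it lay on the opposite strand in Oca2, at 186 bases before the start, and a further time in Dct, at 232 bases before the start. It was not in the 3 windows of Mitf. CACGTG, which Mitf also binds, was found in 7.15% of all windows and in none of those of the pigment genes searched. Windows of Pmel and Mlana were not analysed here. These matches describe letters only, and binding was not measured.

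The melanosome proteins gave the widest spread of ratios. Pmel, whose fragments form the fibrils on which melanin is laid down, had 82 corneal and 439 limbal reads. Mlana, a small membrane protein of the early melanosome also known as MART-1, had 7 corneal and 132 limbal reads. Oca2, a channel protein of the melanosome that helps to set its pH, had 2 corneal and 10 limbal reads. All 3 were higher in the limbus library, and for Mlana and Oca2 the corneal value rested on fewer than 10 reads.

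Pmel was 5.72-fold higher in the limbus (log2 ratio 2.52, 2.17 to 2.87). Mlana was 20.2-fold higher (log2 ratio 4.33, 3.25 to 5.68), the highest ratio of the 7 genes. The intervals of Mlana and Pmel did not overlap. The log2 ratio of Oca2 was 2.42 (0.19 to 5.65), and its interval overlapped those of the 6 other genes. Pmel lies at chr10:128704195-128720238 on the plus strand and shares bases with the coding genes Cdk2 and Dgka on the opposite strand. Mlana, at chr19:29697824-29708634 on the plus strand, is overlapped by no annotated gene. Oca2 spans chr7:56239760-56536518 on the plus strand and is overlapped by the antisense gene Gm44506.

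Mitf, the transcription factor that turns on the enzyme and melanosome genes, had the lowest ratio of the 7. It had 29 corneal and 54 limbal reads. The difference of 1.99-fold (log2 ratio 0.99, 0.32 to 1.70) exceeded counting error but fell just under a log2 ratio of 1. Its interval did not overlap those of Dct, Tyrp1, Pmel and Mlana, and overlapped those of Tyr and Oca2. Mitf lies at chr6:97807052-98021349 on the plus strand, has 8 annotated transcripts from several start sites and is overlapped by the pseudogene Gm15531 on the opposite strand. Its reads were counted per gene, so the transcript of pigment cells could not be separated from the forms that other cells use. Of the other members of its family, Tfeb had a log2 ratio of 0.30 (0.07 to 0.52) from 309 corneal and 355 limbal reads. Tfe3, which like Tfeb acts on lysosome genes in many cells, had one of 0.29 (0.15 to 0.44) from 690 and 792 reads. Tfec had 2 reads in each library, too few for a ratio.

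**Figure D2:**
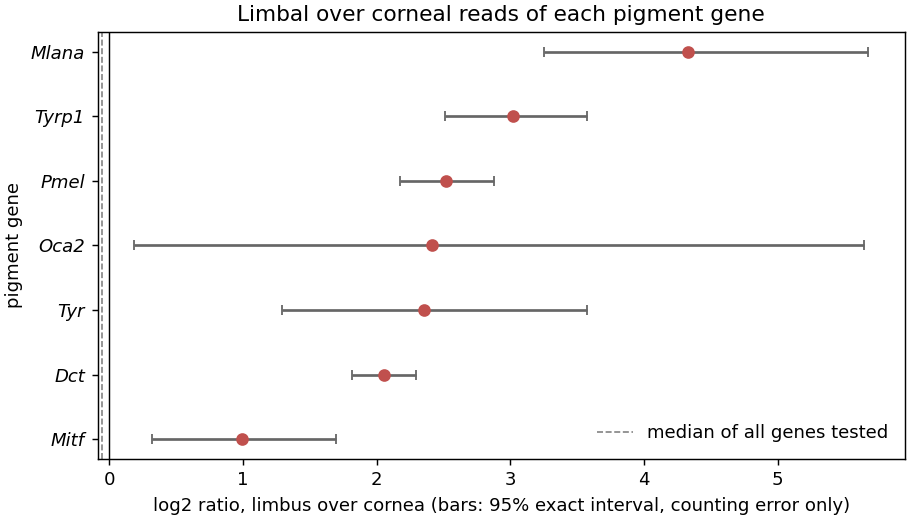
The log2 ratio of limbus over cornea of each pigment gene (points) with its exact 95% interval (bars, counting error only), ordered by ratio, with the median of all genes tested as a dashed line at -0.05. All 7 intervals lie to the right of 0, from Mitf at 0.99 to Mlana at 4.33, and that of Oca2 is the widest.

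Among the 21 pairs of pigment genes, the intervals of the ratios were apart in 7 pairs and overlapped in 14. The 7 pairs were those of Mitf with Dct, Tyrp1, Pmel and Mlana, those of Dct with Tyrp1 and Mlana, and that of Mlana with Pmel. The make-up of the pigment gene reads therefore differed between the libraries. Of the 347 pigment gene reads of the cornea, Dct took 52.7% (47.3 to 58.1, exact binomial interval), and of the 1654 of the limbus it took 42.9% (40.5 to 45.4). Mlana took 2.02% (0.815 to 4.11) in the cornea and 7.98% (6.72 to 9.39) in the limbus. Mitf took 8.36% (5.67 to 11.8) in the cornea and 3.26% (2.46 to 4.24) in the limbus. The intervals of the 2 libraries were apart for these 3 genes and also for Tyrp1, at 10.1% (7.13 to 13.7) and 16.1% (14.3 to 17.9). The shares of Pmel, Tyr and Oca2 overlapped, with Pmel at 23.6% (19.3 to 28.5) and 26.5% (24.4 to 28.7).

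Levels were compared between genes as reads per kilobase of exons, scaled to 1000000 reads on named genes. In the limbus Pmel had the highest level at 9.04 (8.22 to 9.93, exact Poisson interval). Mlana at 5.90 (4.93 to 6.99) and Dct at 5.69 (5.28 to 6.12) followed and did not differ beyond counting error. Tyrp1 was at 4.44 (3.92 to 5.01), below the interval of Dct. These 4 genes stood apart from Mitf, which was at 0.411 (0.309 to 0.537). Tyr at 0.286 (0.207 to 0.385) overlapped with Mitf, and Oca2 at 0.119 (0.0572 to 0.219) overlapped with Tyr.

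In the cornea the order was similar except for Mlana. On the same scale Pmel was at 1.37 (1.09 to 1.70) and Dct at 1.19 (1.02 to 1.37), with overlapping intervals. Tyrp1 was at 0.474 (0.330 to 0.659), below both. Mlana, which shared the second place with Dct in the limbus, was at 0.254 (0.102 to 0.523) and overlapped with both Tyrp1 and Mitf at 0.179 (0.120 to 0.258). Tyr was at 0.0485 (0.0222 to 0.0921), below the interval of Mitf, and Oca2 at 0.0193 (0.00234 to 0.0699) overlapped with Tyr. With the longest transcript as length in place of all exons, the level of Dct became 2.03 in the cornea and 9.69 in the limbus, which put it above Pmel in the cornea and above Mlana in the limbus.

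**Figure D3:**
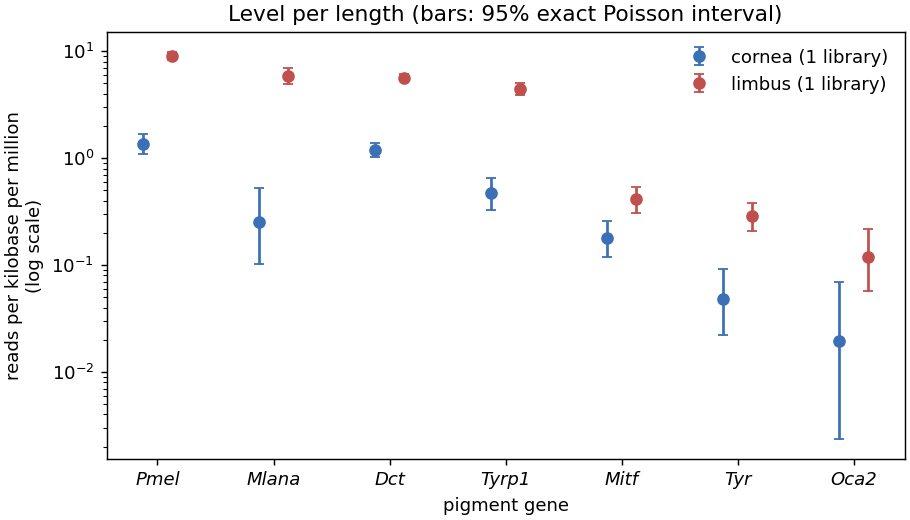
Level of each pigment gene in reads per kilobase of exons, scaled to 1000000 reads (log scale), in the cornea library and the limbus library, with exact 95% Poisson intervals as bars, ordered by limbal level. Pmel, Mlana, Dct and Tyrp1 lie between 4.44 and 9.04 in the limbus and apart from Mitf, Tyr and Oca2, while in the cornea Mlana at 0.254 lies nearer to Mitf at 0.179 than to Dct at 1.19.

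Other genes of the pigment cell did not share a common direction. Their counts are to be read against the 33.2% of all genes tested that were higher in the limbus and the 40.6% that were higher in the cornea. Of 10 melanosome channels and transporters, 7 could be tested, and of these 4 were higher in the limbus, 2 in the cornea and 1 was within counting error, with a median log2 ratio of 0.09. Slc24a5, an ion exchanger of the melanosome, had 4 corneal and 30 limbal reads (log2 ratio 3.0, 1.5 to 4.97). Slc45a2, a transporter whose loss causes albinism, had 1 and 14 reads (log2 ratio 3.90, 1.19 to 9.31). Both had ratios in the range of the pigment genes. Gpr143, the ocular albinism receptor, had 0 and 5 reads, too few to bound a fold above 1. Trpm1, a channel of melanocytes and retinal bipolar cells, had 347 and 535 reads (log2 ratio 0.72, 0.52 to 0.92). Tpcn2, a melanosome and lysosome channel, had 828 and 525 reads and was higher in the cornea (log2 ratio -0.56, -0.72 to -0.40), as was the copper pump Atp7a.

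Of 27 genes of melanosome biogenesis and transport, most of which serve lysosome-related organelles in many cells, 26 were listed and all 26 could be tested. Of these, 7 were higher in the limbus, 14 in the cornea and 5 were within counting error, with a median log2 ratio of -0.28. With scaling by total reads, chosen for these lists after their values were seen, the split was 10 in the limbus, 10 in the cornea and 6 within counting error, and 45.1% of all genes tested were higher in the limbus. Rab27a, which tethers melanosomes to the actin motor, had 279 corneal and 1579 limbal reads (log2 ratio 2.60, 2.41 to 2.79). Myo5a, the motor itself, had 140 and 249 reads (log2 ratio 0.93, 0.62 to 1.24), and Mlph, which links both, had 300 and 265 (log2 ratio -0.08, -0.33 to 0.16). The 3 parts of this transport complex therefore had different ratios. With scaling by total reads that of Mlph would be 0.12 (-0.12 to 0.37), still within counting error. Gpnmb, a relative of Pmel that macrophages also make, had a log2 ratio of 1.31 (1.14 to 1.47) from 439 and 1016 reads. Rab32, which brings enzymes to the melanosome, had 695 and 226 reads and was higher in the cornea (log2 ratio -1.52, -1.75 to -1.31). Rab38, its close relative with the same role, had 767 and 577 reads (log2 ratio -0.31, -0.47 to -0.16), and with scaling by total reads its interval reached from -0.27 to 0.05 and took in 0.

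Of 16 regulators and receptors of the melanocyte lineage, 10 could be tested, and 5 of these were higher in the limbus, 3 in the cornea and 2 were within counting error (median log2 ratio 0.09). Sox10, the neural crest factor that switches on Mitf and is also made by Schwann cells, had 2 corneal and 115 limbal reads (log2 ratio 5.94, 4.06 to 9.0). Foxd3, a neural crest factor of precursors and glia, had 0 and 28 reads and was at least 3.08-fold higher in the limbus, taking 3 reads as the limit of a count of 0. Zeb2, a transcription factor of melanocytes, macrophages and other cells, had 43 and 251 reads (log2 ratio 2.64, 2.17 to 3.14). These 3 stood on the limbal side together with the pigment genes. Kit, the receptor that melanocytes need for survival, did not, with 5165 corneal and 2491 limbal reads (log2 ratio -0.96, -1.03 to -0.89). Ednrb, the endothelin receptor of melanocyte precursors, had 211 and 201 reads (log2 ratio 0.03, -0.26 to 0.31). Mc1r, the melanocortin receptor, had 0 and 1 reads, and Pax3 had 3 and 0, too few for a ratio.

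Of 12 ligands and antagonists that act on melanocytes, 11 were listed and 8 could be tested, with 4 higher in the limbus, 3 in the cornea and 1 within counting error (median log2 ratio 0.54). Edn3, the endothelin that expands melanocyte precursors, had 6 corneal and 91 limbal reads (log2 ratio 4.02, 2.84 to 5.50). Edn1, the endothelin made by keratinocytes, was higher in the cornea with 488 and 167 reads (log2 ratio -1.45, -1.71 to -1.19). Edn2 had 13 and 28 reads and was higher in the limbus (log2 ratio 1.20, 0.21 to 2.28). The listed endothelins thus did not share a side. Kitl, the ligand of Kit, had 795 and 822 reads (log2 ratio 0.14), with a lower end of its interval at 0.00. Dkk1, a Wnt antagonist that lowers pigmentation, had 24 and 55 reads (log2 ratio 1.29, 0.58 to 2.05). Bmp4, a growth factor with effects on melanin synthesis, had 3 and 116 reads (log2 ratio 5.37, 3.79 to 7.67).

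Markers of several other cell types moved with the pigment genes, while most markers of corneal epithelium were higher in the cornea. The counts of all marker lists are to be read against the same shares of all genes tested. These were 33.2% higher in the limbus and 40.6% higher in the cornea. All 10 markers of the retinal pigment epithelium could be tested, and 9 of them were higher in the limbus, with Best1 (38 and 54 reads) within counting error. Rpe65, the isomerase of the visual cycle, had 7 corneal and 35 limbal reads (log2 ratio 2.42, 1.23 to 3.83). Rlbp1, the retinal-binding protein, had 22 and 169 reads (log2 ratio 3.04, 2.39 to 3.75). None of the 10 was at 0 in either library. Summed, the 10 markers had 305 corneal and 1517 limbal reads, or 11.7 and 71.6 per 1000000 reads, beside 13.3 and 78.1 for the summed pigment genes. The log2 ratio of their sum was 2.41 (2.23 to 2.59) and overlapped that of the summed pigment genes at 2.35 (2.18 to 2.52).

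Taken as a share of the reads of both lists, the pigment genes held 53.2% in the cornea (49.3 to 57.1) and 52.2% in the limbus (50.4 to 53.9), so this share differed by less than counting error. The nearness of the sums depended on a few genes that pulled in opposite directions. Mertk and Best1 had 147 of the 305 corneal reads and 255 of the limbal ones. Ttr had 72 and 640 reads (log2 ratio 3.25, 2.89 to 3.62), the most limbal reads of the 10. The 8 markers other than Mertk and Best1, set apart after their values were seen, had 158 and 1262 reads (log2 ratio 3.09). The median of all 10 was 2.98 beside 2.43 for the 6 pigment genes tested. Photoreceptor markers moved further. All 7 were higher in the limbus, with 617 and 5555 reads in sum (log2 ratio 3.27, 3.15 to 3.39). The share of the pigment genes against the photoreceptor markers was 36.0% (33.0 to 39.1) in the cornea and 22.9% (22 to 23.9) in the limbus, with intervals apart.

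The markers of the front of the eye and of nerve gave further values beside the pigment genes. Of 6 listed markers of ciliary and iris epithelium, 2 could be tested, of which Optc was higher in the limbus with 16 corneal and 87 limbal reads (log2 ratio 2.54, 1.76 to 3.41). The other, Col9a1, had 44 and 30 reads and was within counting error (log2 ratio -0.46, -1.18 to 0.25). The remaining 4 had at most 3 corneal reads, among them Wnt2b with 0 and 30 and Msx1 with 0 and 41, and the sum of the list was 65 and 210. The smooth muscle markers listed for iris and ciliary body are not particular to them and do not separate their muscle from that of vessels. Of these, Des had 0 and 305 reads, and the sum of 5 markers was 52 and 1345. Other markers of both lists did have corneal reads, such as Optc and Col9a1 above. Among the smooth muscle markers, Acta2 had 40 corneal and 730 limbal reads, and Myh11 had 8 and 277. Of 9 Schwann cell markers, 7 could be tested, of which 6 lay on the limbal side beyond counting error and 1 on the corneal side, with Mbp, a myelin gene, at 4334 and 5495 reads. All 5 listed macrophage markers were higher in the limbus, with 645 and 1915 reads in sum (log2 ratio 1.67, 1.54 to 1.80). Markers of blood vessel endothelium summed to 183 and 2073 reads (log2 ratio 3.60, 3.38 to 3.82). Most corneal reads of this sum came from Kdr, with 170 corneal and 278 limbal reads (log2 ratio 0.81, 0.52 to 1.09). Most limbal reads came from the other markers. Pecam1 had 6 and 831 reads, Cdh5 had 3 and 421, Tek had 2 and 178, and Emcn had 2 and 365. The part of each of these cell types in the ratios of the pigment genes was not tested.

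The conjunctival keratins Krt4, Krt13 and Krt19 were higher in the limbus, while Muc5ac, the goblet cell mucin, had 1 read in each library. Of the keratocyte markers, Kera and Aldh1a1 were higher in the cornea, Lum was within counting error and Ptgds, which is also made elsewhere in the eye, was higher in the limbus with 186 and 1950 reads. Of 5 markers of corneal epithelium, 4 were higher in the cornea and 1 in the limbus. The pigment genes were thus on the side opposite to Krt12 and Kera, at log2 ratios of -2.19 and -2.99.

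**Figure D4:**
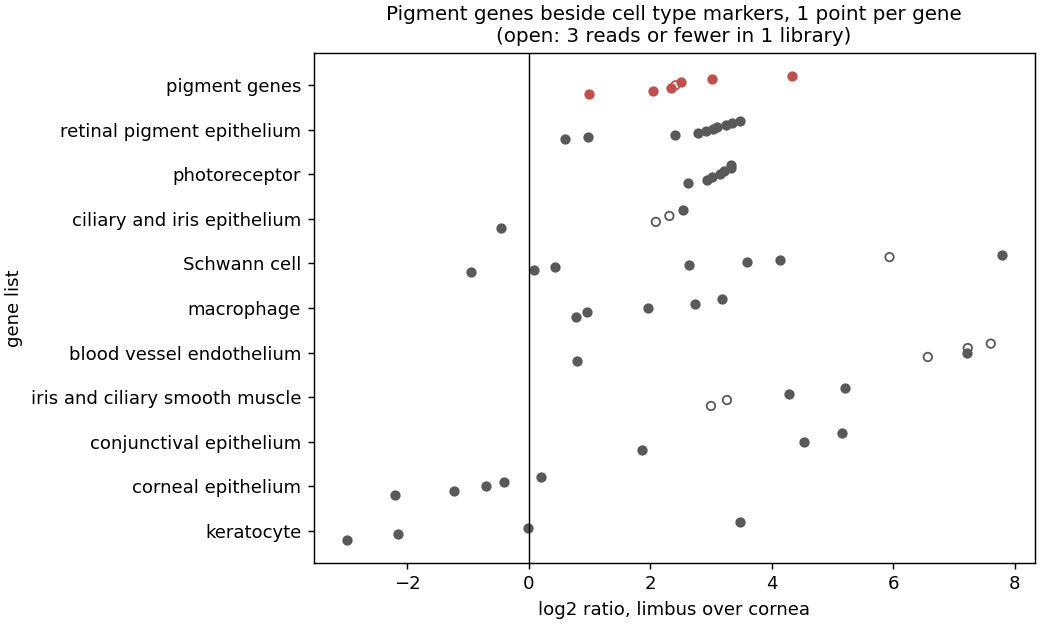
The log2 ratio of limbus over cornea of each gene (points) in the list of pigment genes and in 10 lists of cell type markers, with open points where a library had 3 reads or fewer. Genes at 0 in the cornea (Wnt2b, Msx1, Foxd3 and Des), Muc5ac and genes not listed have no point. The smooth muscle markers are not particular to iris and ciliary body. The pigment genes from 0.99 to 4.33 overlap the range of the retinal pigment epithelium markers, 0.60 to 3.49, and the photoreceptor markers lie within the range of the pigment genes.

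With 2 library values per gene, likeness to the pigment genes comes down to 1 number, the log2 ratio. Among 11274 genes outside all lists with at least 139 reads in both libraries together, the 5 closest to the summed pigment genes were Antxr2, Ptgis, Cybrd1, Msrb3 and Tle2, with log2 ratios between 2.34 and 2.35. Ptgis, the prostacyclin synthase, had 83 corneal and 395 limbal reads, and Msrb3, a methionine sulfoxide reductase, had 109 and 518. Such nearness is a description, since many genes lie at any given ratio.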

How the data were processed

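Total RNA of pooled limbal rims and corneal buttons, 100 ng of input, was made into stranded libraries. Per the methods, adaptors were removed, CLC Genomics Workbench 20 mapped the reads to GRCm38 (mm10), and a trimmed mean of M-values served to normalise them. The authors deposited 1 table with a mean normalised signal per gene, a log2 fold change of cornea over limbus, the standard error of that change (a score) and p-values. The name and headers of the table point to DESeq, which the methods do not mention, and no version is given. The fold changes and standard errors served only to work back the reads, the p-values were not used, and none of these values is printed.

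The deposited table has 40904 entries, of which 23420 name a gene. The 17484 without a name stayed out of all totals, and 5978 named genes have a mean of 0. Each mean is built from whole reads of 2 libraries divided by size factors of 1.03 (cornea) and 0.967 (limbus), so that 109 corneal reads are worth 102 limbal reads. For 6143 genes the mean allowed a single pair of read numbers, and for 11299 more, within a tolerance of 0.0001 reads. The pair was taken that gave back the deposited fold change and standard error. This was met within 0.0001 for all 17442 genes, and the dispersion of like genes decided for 78. On simulated data for this recovery, all 17078 genes were found exactly and 200 of 200 changed genes had the right direction. The simulation used the same model, with settings worked out from these data. It therefore does not test whether that model holds for the deposited values. The reads are derived values and not a deposited count table. The numbers L001 to L004 in the labels resemble lanes, and the table has no value per numbered sample, so each tissue was 1 library.

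Ratios are limbus over cornea after the size factors, with intervals from the limbal share (exact, Clopper-Pearson) converted to log2 ratios. Counts of 0 were bounded with 3 reads, and genes with 1 to 3 reads are given with their interval. Genes were matched by symbol, since only 2 of 18556 accessions found in RefSeq had the symbol beside them, and 27 symbols had become dates or numbers. Positions and lengths are from GENCODE (GRCm38) and promoter windows from RefSeq (GRCm38.p6). The pigment genes and all lists were chosen with earlier results of these data known. Named genes are the pigment genes, defining or most read genes of the lists, and the 5 genes of closest ratio outside the lists. The values of 3 listed marker genes are not reported here. Alternatives were other scalings, a pseudocount of 1 normalised read, filters on a mean of 10 or 50, the next best pair of reads and the longest transcript. Python 3.11.15 with numpy 2.4.6, scipy 1.17.1, pandas 2.3.3 and matplotlib 3.10.9 was used.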

Additional observations from a re-analysis of the deposited data

How the results depend on the processing

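Scaling by total reads, a trimmed mean of M-values, centring on the median of all genes and a pseudocount of 1 normalised read left each of the 7 pigment genes on the limbal side. The summed log2 ratio of 2.35 became 2.55 with total reads and 2.62 without Dct, an alternative chosen after seeing the data. The count of 6 genes higher in the limbus became 7 with the pseudocount and 4 with a mean of at least 50, which tests fewer genes. The next best pair of read numbers, which missed the deposited values by 0.0110 for Dct and by 1.06 or more on the log2 scale for Tyrp1, Pmel and Mlana, would give log2 ratios of 3.55 for Dct, 0.28 for Tyrp1, 0.91 for Pmel and -1.86 for Mlana, 1.46 for the sum and a count of 4. Tyr, Mitf and Oca2 have no other pair. The reads behind the ratios limit them most for Oca2, Mlana and Tyr, with 2, 7 and 9 corneal reads. No paired analysis was possible because the table has no values for the numbered samples, and leaving out replicates was not run for the same reason.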
